A study of Mus musculus with 12 samples.

Results

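The genes described here were Dbp, Tef, Hlf and Nfil3, 4 of the 51609 gene rows of a count table from mouse liver RNA-seq. They were taken by the Ensembl identifiers that the GENCODE vM1 annotation of mm9 gives those names, all 4 had a row, and all 4 passed the filter on low counts that left 17652 genes. The genes were chosen with their levels in these same livers already known, so their levels and differences are given as a description, with no p-value. Their rows stayed in the fit across all genes, and whether they passed its threshold is stated beside the share of all genes that did. Outcomes under alternative fits are given with it, and none of these is evidence about them. P-values are given only for other genes, namely Sphk2 and the genes of lists described further on. Those lists too were chosen with earlier results of these data known. Their counts beside the share of all genes are therefore a description and no independent support.

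The study asked how the transcription factors Rela, a subunit of NF-kB, and Stat3 act in the liver while the colon is inflamed. Livers came from C57BL/6 mice in 4 groups of 3, with 1 library per mouse: wild-type mice on plain water, wild-type mice given 2% dextran sulfate sodium (DSS) in water for 6 days, and mice labelled RelaΔhepStat3Δhep, again on water or on 2% DSS for 6 days. DSS damages the lining of the colon and is the usual way to cause acute colitis in mice. Per the study's methods, mice were 5 to 7 weeks old, animals of either sex were used, Cre was driven by the albumin promoter, so that cells other than hepatocytes keep both genes, and the wild-type mice were littermates without Cre, which for the double knockout are Rela fl/fl Stat3 fl/fl. The time of day at which livers were taken is not given in the sources used here. All 4 genes are known to vary over the day in mouse liver, and sampling time and group cannot be told apart here. RNA was taken from whole liver, where fewer cells of a type and less RNA per cell cannot be told apart.

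Dbp, Tef and Hlf encode the PAR bZIP transcription factors, named for a proline- and acidic-amino-acid-rich stretch next to their basic leucine zipper. They bind a DNA element called the D-box and activate genes near it. Nfil3 (also called E4BP4) is a bZIP factor without that stretch which binds the same elements and represses. In the liver clock the pair CLOCK and BMAL1 drives Dbp through E-boxes, whereas Nfil3 is activated by the nuclear receptors ROR and repressed by REV-ERB (Nr1d1 and Nr1d2). D-box output in liver is best known for enzymes of drug and steroid metabolism and their regulators, and mice that lack all of the PAR bZIP factors are known to handle drugs poorly.

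In mm9 coordinates, Dbp (ENSMUSG00000059824) lies at chr7:52960458-52965525 on the plus strand and has 5 annotated transcripts with 2945 exonic bases. Tef (ENSMUSG00000022389) lies at chr15:81632851-81657291 on the plus strand, with 11 transcripts and 7865 exonic bases. Hlf (ENSMUSG00000003949) lies at chr11:90197849-90252231 on the minus strand, with 6 transcripts and 6494 exonic bases. Nfil3 (ENSMUSG00000056749) lies at chr13:53062578-53076442 on the minus strand, with 1 transcript and 2026 exonic bases. Dbp shares 491 exonic bases (16.67% of its own) with Sphk2 on the opposite strand, and Tef shares 193 (2.45%) with the non-coding gene Gm17597, which has no row. Whether the counting used strand is not given in the sources used here, so reads from those stretches cannot be assigned with certainty.

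Because Dbp, Tef and Hlf were all lowest in the same group of livers, their promoter sequences are shown with the motifs through which the clock and the deleted factors are known to act. The motifs were the E-box CACGTG, the D-box TTANGTAA, the ROR core element AGGTCA, the kB motif (GGG and CC with any 5 bases between) and the STAT motif TTCNNNGAA, searched on both strands. The windows run from 250 bases before to 50 bases after the start in RefSeq's table for GRCm38.p6, in which the 4 genes have 5 windows, and every match is in capitals.

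Dbp, chr7:45704997-45705296 (plus strand): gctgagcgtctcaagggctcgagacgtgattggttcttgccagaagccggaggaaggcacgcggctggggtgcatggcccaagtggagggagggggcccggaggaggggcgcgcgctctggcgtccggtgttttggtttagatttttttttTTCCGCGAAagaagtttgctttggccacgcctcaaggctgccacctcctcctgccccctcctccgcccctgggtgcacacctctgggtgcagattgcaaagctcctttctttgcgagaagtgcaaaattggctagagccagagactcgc

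Tef, chr15:81802423-81802722 (plus strand): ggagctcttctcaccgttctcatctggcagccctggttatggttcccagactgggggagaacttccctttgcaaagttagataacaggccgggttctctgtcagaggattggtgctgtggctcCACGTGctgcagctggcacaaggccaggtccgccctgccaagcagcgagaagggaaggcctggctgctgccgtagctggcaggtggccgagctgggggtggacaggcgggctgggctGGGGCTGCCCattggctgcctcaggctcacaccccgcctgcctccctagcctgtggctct

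Tef, chr15:81811164-81811463 (plus strand): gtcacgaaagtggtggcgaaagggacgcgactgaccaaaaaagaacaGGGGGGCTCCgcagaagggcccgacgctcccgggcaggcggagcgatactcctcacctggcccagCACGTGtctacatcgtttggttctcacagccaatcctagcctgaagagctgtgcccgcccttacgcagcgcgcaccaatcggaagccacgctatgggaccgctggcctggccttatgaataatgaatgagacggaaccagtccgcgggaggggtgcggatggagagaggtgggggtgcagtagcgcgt

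Hlf, chr11:90390868-90391167 (minus strand): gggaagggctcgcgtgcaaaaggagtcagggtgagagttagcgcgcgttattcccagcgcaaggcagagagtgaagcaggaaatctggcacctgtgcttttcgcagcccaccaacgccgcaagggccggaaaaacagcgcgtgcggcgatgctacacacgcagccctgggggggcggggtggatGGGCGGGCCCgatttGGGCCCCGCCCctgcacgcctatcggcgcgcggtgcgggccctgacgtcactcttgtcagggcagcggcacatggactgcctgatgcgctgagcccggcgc

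Nfil3, chr13:52980990-52981289 (minus strand): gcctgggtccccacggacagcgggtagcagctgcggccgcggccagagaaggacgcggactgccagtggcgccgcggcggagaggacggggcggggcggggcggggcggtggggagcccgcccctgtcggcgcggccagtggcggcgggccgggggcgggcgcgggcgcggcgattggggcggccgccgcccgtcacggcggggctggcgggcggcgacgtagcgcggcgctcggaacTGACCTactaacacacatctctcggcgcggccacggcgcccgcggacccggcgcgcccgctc

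The E-box was found in both Tef windows, at positions -127 and -138 from the start, and in neither the Dbp, the Hlf nor the Nfil3 window. Among all 32851 windows of the table, 7.15% hold that E-box. No D-box, which 2.32% of windows hold, was found in the 5 windows. The Nfil3 window held 1 ROR core element on the minus strand at position -12 (16.3% of all windows hold one), and the Dbp window held 1 STAT motif at position -99 (8.30%). The kB letters were found in both Tef windows and in the Hlf window, but 50.8% of all windows hold them and some matches overlap each other or read on both strands. A match is a run of letters, not a site shown to be bound.

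A wider window, from 1000 bases before to 1000 after the gene start in mm9, was added after the files were seen because the promoter table is of another build than the counts. In it Tef held 2 E-boxes and 1 D-box, and Nfil3 held 1 E-box and 1 D-box. ROR core elements numbered 3 in Dbp, 2 in Tef, 2 in Hlf and 1 in Nfil3. Of the 22380 windows of protein-coding genes, 27.8% hold the E-box, 16.1% the D-box and 67.9% the ROR core element. Neither Dbp nor Hlf held an E-box or a D-box in this window, which says only that these letters are not there. The kB motif had 14 matches in Dbp, 6 in Tef, 6 in Hlf and 9 in Nfil3, with both strands counted, and 92.3% of all windows hold it. The STAT motif had 2 matches in Dbp and none in the other 3 genes, and 45.2% of all windows hold it. The E-box and D-box matches and the 1 ROR core element of Nfil3, the repressor, are printed with the motif in capitals and read along the gene's strand. The Tef E-box in a UTR and this Nfil3 element are the same sites as those at -127 and -12 above. Their placement differs because the RefSeq and mm9 gene starts differ.

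Tef E-box in a UTR, chr15:81632964-81632993 (plus strand): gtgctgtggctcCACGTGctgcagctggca

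Tef E-box in an intron, chr15:81633509-81633538 (plus strand): aggtgctgtgctCACGTGgggcaaggatgg

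Tef D-box in an intron, chr15:81633703-81633732 (plus strand): atagaagctggTTATGTAAcaggaccacaa

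Nfil3 E-box upstream, chr13:53077091-53077120 (minus strand): ccgccacctctcCACGTGgtcggggacaca

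Nfil3 ROR core element in a UTR, chr13:53076403-53076432 (minus strand): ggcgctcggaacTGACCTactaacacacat

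Nfil3 D-box in an intron, chr13:53076063-53076092 (minus strand): cggggcatgcaTTACATAAacttttgctgc

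The libraries held between 65879529 and 82850098 estimated counts, with TMM factors of 0.758 to 1.13. Rela was not lower in the RelaΔhepStat3Δhep-labelled livers, with 39.5 to 62.3 CPM (counts scaled to library size by TMM) against 39.8 to 55.5 in wild-type livers, and gene counts do not show a deleted exon. Stat3 was at 43.0 to 74.8 CPM in the labelled livers and at 45.7 to 330 CPM in wild-type livers. Sex-linked transcripts divided the libraries: Xist stood at 903 to 1283 CPM in the 3 DSS-treated RelaΔhepStat3Δhep-labelled livers and at 1143 in the third untreated wild-type liver, against at most 29.0 CPM in the other 8. Summed transcripts of 4 Y-linked genes were at 0.0424 to 0.120 CPM in those 3 DSS-treated livers, at 30.1 in the third untreated wild-type liver and at 175 to 241 in the others. So sex and group cannot be told apart in any comparison that includes the DSS-treated RelaΔhepStat3Δhep-labelled livers, and the members' values without the third untreated wild-type liver are given for the comparisons that include it. The second DSS-treated wild-type liver had neutrophil markers (S100a8, S100a9, Ly6g and Mpo) summing to 78.9 CPM, against 4.36 and 2.06 in the other two of its group, and it differs from them in Dbp and Tef as well.

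Dbp, the PAR bZIP gene known for the deepest daily rhythm, spanned the widest range of the 4. It stood at 29.4, 26.9 and 13.6 CPM in the untreated wild-type livers and at 1.30, 10.4 and 2.10 CPM in the DSS-treated wild-type livers. In the RelaΔhepStat3Δhep-labelled livers it was at 2.05, 8.98 and 3.47 CPM untreated and at 0.185, 0.335 and 0.367 CPM after DSS. Every untreated wild-type liver was above every other liver, and every DSS-treated RelaΔhepStat3Δhep-labelled liver was below every other liver. The groups between them, DSS-treated wild-type and untreated RelaΔhepStat3Δhep-labelled, overlapped. The lowest values rest on few reads, with 13, 28 and 26 estimated counts in the 3 DSS-treated RelaΔhepStat3Δhep-labelled livers against 2238 in the richest liver. The highest liver had 159 times the level of the lowest.

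Group means of Dbp were 23.3 ± 8.51 CPM (SD, n = 3) without and 4.60 ± 5.04 CPM with DSS in wild-type livers, and 4.83 ± 3.66 CPM without and 0.296 ± 0.0971 CPM with DSS in RelaΔhepStat3Δhep-labelled livers. The fitted log2 difference of DSS against untreated was -2.34 (SE 0.79) in wild-type livers and -4.01 (SE 0.92) in RelaΔhepStat3Δhep-labelled livers. Between genotypes, labelled minus wild-type, it was -2.27 (SE 0.78) without treatment and -3.94 (SE 0.92) after DSS. The difference between the DSS differences was -1.67 (SE 1.16). Single livers carried much of this spread. Without the second DSS-treated wild-type liver the wild-type DSS difference was -3.78, the genotype difference after DSS -2.51 and the difference of differences -0.25. Without the second untreated RelaΔhepStat3Δhep-labelled liver the DSS difference there was -3.20 and the untreated genotype difference -3.08. Without that liver the difference of differences was -0.86. Without the third untreated wild-type liver the wild-type DSS difference was -2.62, the untreated genotype difference -2.54 and the difference of differences -1.39.

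Sphk2, a sphingosine kinase gene whose exons overlap those of Dbp, differed much less. Its log2 differences were -0.10 (SE 0.17) for DSS in wild-type and -0.22 (SE 0.17) for DSS in RelaΔhepStat3Δhep-labelled livers. Between genotypes it was lower by the fit, at -0.53 (SE 0.17) untreated and -0.65 (SE 0.17) after DSS, with no overlap between the groups in either case, and none of these passed the threshold in edgeR (adjusted p = 0.285 and 0.130 for the genotype differences). The part of shared reads in the counts of Dbp was not tested.

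Tef, thyrotroph embryonic factor, was lowest in the DSS-treated RelaΔhepStat3Δhep-labelled livers. It was at 142, 93.6 and 84.0 CPM in untreated wild-type livers and at 39.3, 110 and 38.4 CPM in DSS-treated wild-type livers. The second DSS-treated wild-type liver lay within the untreated range while its group mates lay below it. In RelaΔhepStat3Δhep-labelled livers Tef was at 81.5, 171 and 122 CPM untreated and at 14.9, 15.4 and 21.3 CPM after DSS. The last 3 livers were below all 9 others.

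The means of Tef were 106 ± 30.9 and 62.5 ± 40.9 CPM (SD, n = 3) in untreated and DSS-treated wild-type livers, and 125 ± 44.8 and 17.2 ± 3.55 CPM in untreated and DSS-treated RelaΔhepStat3Δhep-labelled livers. The log2 difference of DSS against untreated was -0.77 (SE 0.42) in wild-type and -2.86 (SE 0.44) in RelaΔhepStat3Δhep-labelled livers. Between genotypes it was 0.23 (SE 0.41) without treatment, where the groups overlapped, and -1.86 (SE 0.43) after DSS, where they did not. The difference between the DSS differences was -2.09 (SE 0.59). Without the second DSS-treated wild-type liver these moved to -1.46 for DSS in wild-type livers, -1.18 for the genotypes after DSS and -1.42 for the difference of differences. Without the first untreated wild-type liver the wild-type DSS difference was -0.51. Without the third untreated wild-type liver it was -0.92, the untreated genotype difference was 0.08 and the difference of differences -1.94. The untreated genotype difference was small and ran from -0.07 without the second untreated RelaΔhepStat3Δhep-labelled liver to 0.49 without the first untreated wild-type liver.

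Hlf, hepatic leukemia factor, varied least among the PAR bZIP activators, by 4.36-fold over the 12 livers. It was at 67.5, 48.9 and 56.2 CPM in untreated and at 30.6, 40.7 and 49.5 CPM in DSS-treated wild-type livers, which overlapped. In RelaΔhepStat3Δhep-labelled livers it was at 69.7, 109 and 79.8 CPM untreated and at 27.6, 25.1 and 32.2 CPM after DSS, which did not. All 3 untreated RelaΔhepStat3Δhep-labelled livers were above all 9 others, an order opposite to that of Dbp, which was lower in those livers than in untreated wild-type livers.

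The means of Hlf were 57.5 ± 9.38 and 40.3 ± 9.44 CPM (SD, n = 3) in untreated and DSS-treated wild-type livers, and 86.2 ± 20.6 and 28.3 ± 3.63 CPM in untreated and DSS-treated RelaΔhepStat3Δhep-labelled livers. DSS against untreated gave a log2 difference of -0.51 (SE 0.21) in wild-type and -1.61 (SE 0.21) in RelaΔhepStat3Δhep-labelled livers. Labelled minus wild-type gave 0.58 (SE 0.21) untreated and -0.51 (SE 0.21) after DSS, so the sign of the fitted genotype difference changed with treatment. The difference between the DSS differences was -1.09 (SE 0.29). Without the second untreated RelaΔhepStat3Δhep-labelled liver the untreated genotype difference was 0.38, and without the third DSS-treated wild-type liver the genotype difference after DSS was -0.33. Without the third untreated wild-type liver the wild-type DSS difference was -0.53, the untreated genotype difference 0.57 and the difference of differences -1.07.

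Nfil3, the repressor, overlapped between groups throughout. It was at 14.7, 27.9 and 23.3 CPM in untreated and at 19.7, 58.8 and 43.8 CPM in DSS-treated wild-type livers. In RelaΔhepStat3Δhep-labelled livers it was at 31.8, 32.8 and 24.4 CPM untreated and at 32.4, 25.0 and 53.1 CPM after DSS. The means ran in the order 22.0 ± 6.70, 29.7 ± 4.59, 36.8 ± 14.6 and 40.8 ± 19.7 CPM (SD, n = 3), from untreated wild-type through untreated RelaΔhepStat3Δhep-labelled and DSS-treated RelaΔhepStat3Δhep-labelled to DSS-treated wild-type livers, and the livers of neighbouring groups in that order overlapped. The log2 differences were 0.89 (SE 0.39) and 0.31 (SE 0.39) for DSS in wild-type and RelaΔhepStat3Δhep-labelled livers, 0.43 (SE 0.39) and -0.15 (SE 0.39) for genotype without and with DSS, and -0.58 (SE 0.55) for the difference of differences. Single livers moved all 5. Leaving out a liver in turn, DSS in wild-type livers ran from 0.52 (without the second DSS-treated one) to 1.22 (without the first), and DSS in RelaΔhepStat3Δhep-labelled livers from -0.05 (without the third DSS-treated one) to 0.53 (without the second). The untreated genotype difference ran from 0.21 to 0.64 (without the first and the second untreated wild-type liver). The genotype difference after DSS ran from -0.50 (without the third DSS-treated RelaΔhepStat3Δhep-labelled liver) to 0.22 (without the second DSS-treated wild-type liver), and the difference of differences from -0.93 to -0.22 without the same livers. Without the third untreated wild-type liver the wild-type DSS difference was 0.93, the untreated genotype difference 0.47 and the difference of differences -0.62.

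**Figure D1:**
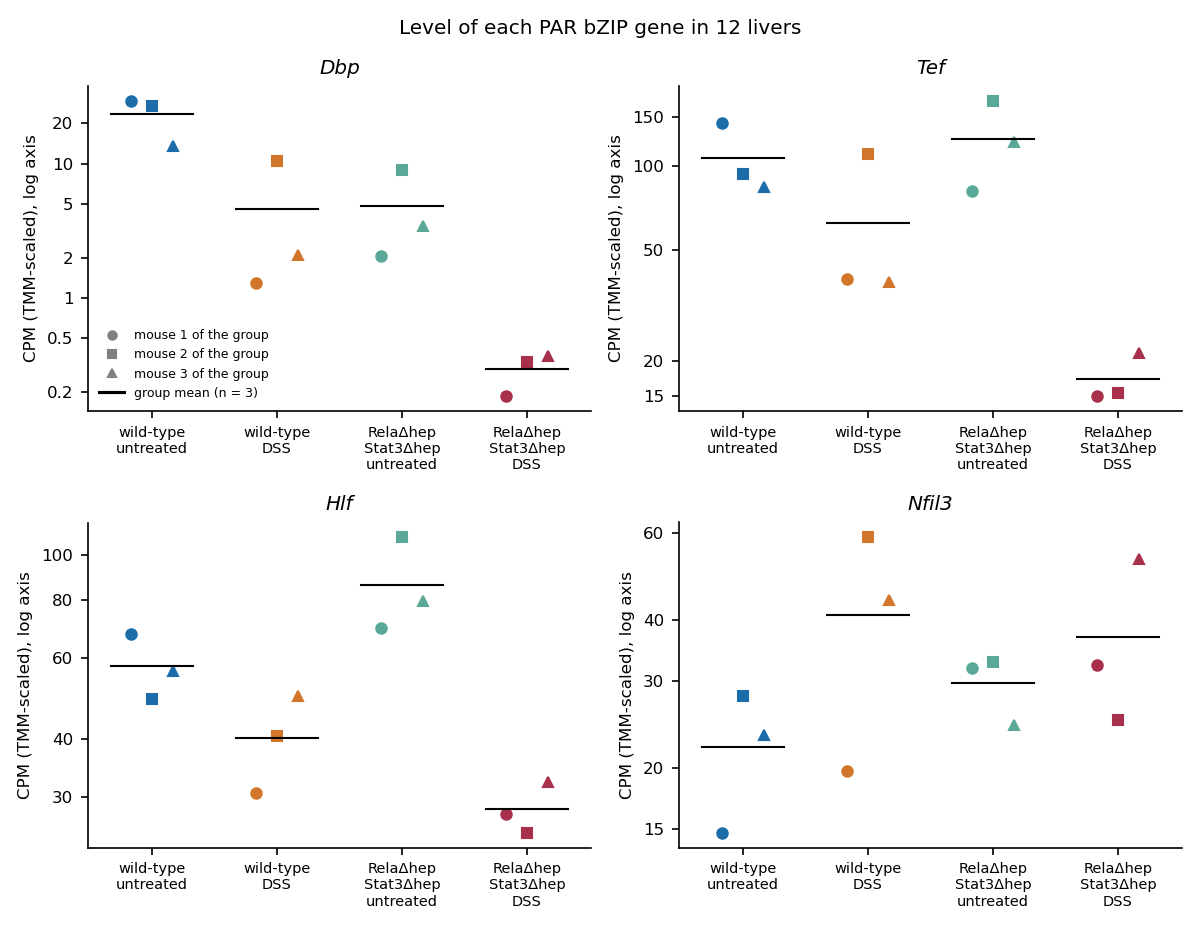
Level of Dbp, Tef, Hlf and Nfil3 in each of the 12 livers, in CPM of TMM-scaled library size on a log axis whose range differs by panel. Points are mice, marked by their number within a group, and lines are group means (n = 3). In the first 3 panels the DSS-treated RelaΔhepStat3Δhep livers lie lowest, at 0.185 to 0.367, 14.9 to 21.3 and 25.1 to 32.2 CPM, with 1 DSS-treated wild-type liver at 30.6 CPM among them for Hlf, while the groups of Nfil3 overlap.

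Read as order of groups, Dbp fell from untreated wild-type to DSS-treated RelaΔhepStat3Δhep-labelled livers with the middle groups inseparable. Tef and Hlf were highest on average in untreated RelaΔhepStat3Δhep-labelled livers, then in untreated wild-type, DSS-treated wild-type and DSS-treated RelaΔhepStat3Δhep-labelled livers. For Tef the upper 3 groups overlapped with their neighbours in that order. For Hlf the untreated groups did not overlap, and every other pair of neighbours did.

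Between groups of 3 livers, values that do not overlap are common in this table, so the members' counts are given with the share over all 17652 genes tested. For DSS in wild-type livers 1 member (Dbp) was lower without overlap, as were 9.21% of genes, and edgeR called none at an adjusted p under 0.05, against 0.685% of genes. For DSS in RelaΔhepStat3Δhep-labelled livers 3 members were lower without overlap, as were 14.0% of genes, and the same 3 were called, against 7.02% of genes in either direction and 2.46% lower. Dbp was not called there when all genes with counts were kept, nor without the second or the third untreated or any DSS-treated RelaΔhepStat3Δhep-labelled liver. For genotype in untreated livers Dbp was lower (10.7% of genes) and Hlf higher (9.56%) without overlap, with no member called against 0.0623% of genes. For genotype after DSS, Dbp and Tef were lower without overlap (7.98% of genes), with no member called against 0.334% of genes. DESeq2 called both, among 583 genes called in all. So did edgeR without the first DSS-treated wild-type liver, among 392 genes called in all, against 59 with every liver. For the difference of differences no member was called, against 0.408% of genes, and DESeq2 called Tef and Hlf among 698 genes called in all. Without the second DSS-treated wild-type liver, Dbp and Tef were called for DSS in wild-type livers. Leaving out each liver in turn gave 35 to 209 calls over all genes in that comparison. Since the genes were picked from these contrasts, nothing is read from these counts.

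**Figure D2:**
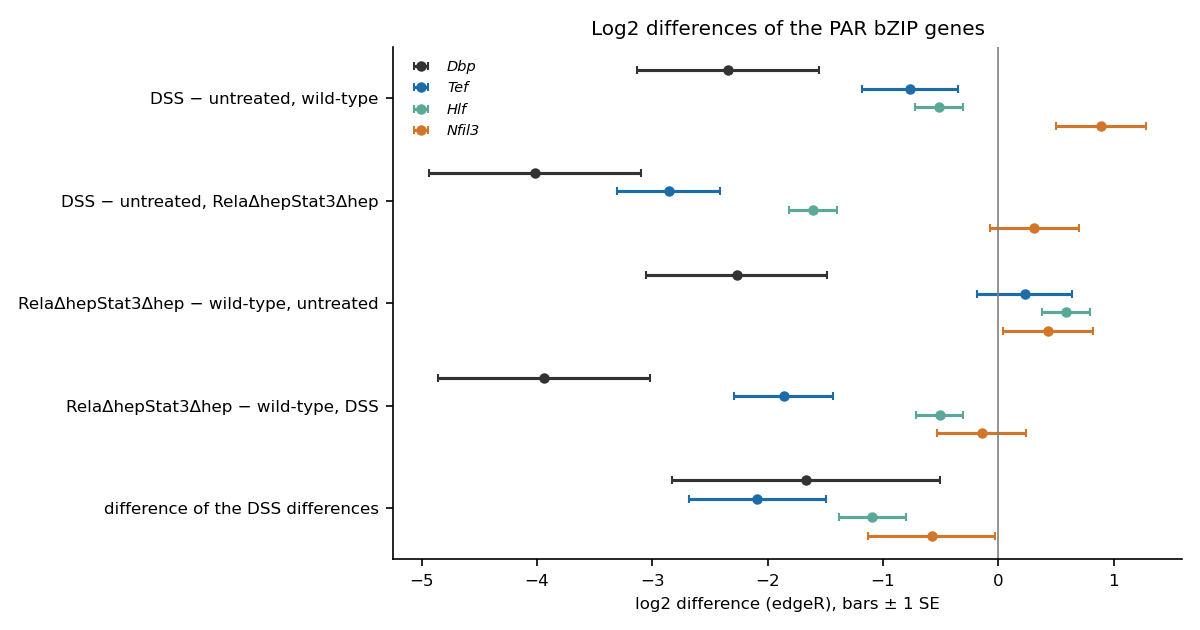
Fitted log2 differences of the 4 genes in 5 comparisons (edgeR, 4-group model), with bars of 1 SE on either side. For DSS in RelaΔhepStat3Δhep livers Dbp, Tef and Hlf lie at -4.01, -2.86 and -1.61 and Nfil3 at 0.31.

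Levels of different genes were compared per kb of exonic length. Nfil3 was the highest of the 4 in 9 of 12 livers and Tef in the other 3, and Dbp was the lowest in 10. The first untreated wild-type liver alone had Nfil3 lowest, with 18.02 CPM per kb of Tef, 10.39 of Hlf, 9.996 of Dbp and 7.28 of Nfil3. In all 3 DSS-treated RelaΔhepStat3Δhep-labelled livers the order was Nfil3, Hlf, Tef and Dbp. The level of Tef over that of Dbp, per kb, was 1.80, 1.30 and 2.32 in untreated wild-type livers and 11.3, 3.95 and 6.84 in DSS-treated wild-type livers. It was 14.9, 7.12 and 13.1 in untreated RelaΔhepStat3Δhep-labelled livers and 30.1, 17.2 and 21.7 in DSS-treated ones, so the 2 activators did not move in proportion.

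The summed level of Dbp, Tef and Hlf over that of Nfil3, per kb, sets the activators against the repressor of the same elements. It was 5.28, 2.07 and 2.08 in untreated and 1.04, 0.818 and 0.611 in DSS-treated wild-type livers. It was 1.39, 2.57 and 2.40 in untreated and 0.388, 0.480 and 0.297 in DSS-treated RelaΔhepStat3Δhep-labelled livers. The untreated livers, of either genotype, had ratios of 1.39 or more, and the DSS-treated livers had 1.04 or less. This is a ratio of transcripts, and the proteins were not measured in these data.

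**Figure D3:**
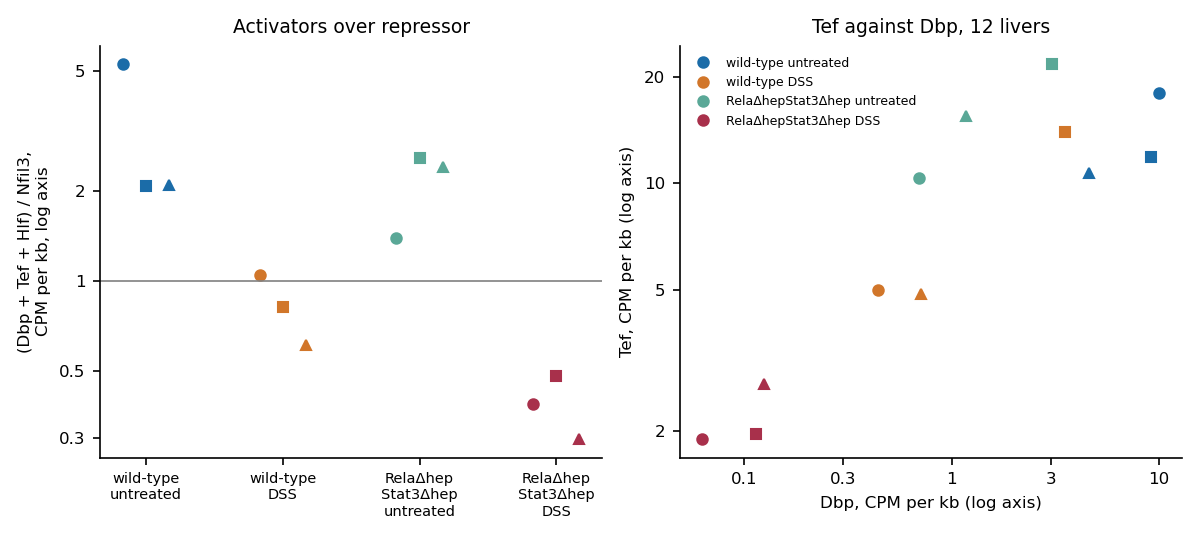
Left, summed CPM per kb of Dbp, Tef and Hlf over CPM per kb of Nfil3 in each liver, log axis, with a line at 1. Right, Tef against Dbp in CPM per kb, both axes log, points coloured by group. DSS-treated livers lie lower on the left than untreated livers of either genotype, and on the right the untreated RelaΔhepStat3Δhep livers overlap with untreated wild-type livers in Tef (10.4 to 21.7 against 10.7 to 18.02 CPM per kb) and lie lower in Dbp (0.695 to 3.05 against 4.61 to 9.996 CPM per kb).

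Across the 12 livers Dbp and Tef had a Pearson r of 0.86 on log2(CPM + 0.5), Tef and Hlf of 0.87, and Dbp and Hlf of 0.62. With group means removed these were 0.93, 0.50 and 0.49, so Dbp and Tef varied together among mice of 1 group too. Nfil3 had an r of -0.29, -0.21 and -0.18 with Dbp, Tef and Hlf, and of 0.46, 0.37 and 0.37 with group means removed. The 12 points share groups and sequencing depth, and these values are descriptions only.

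Among 12718 named protein-coding genes, Per3, a period gene of the clock, was most like Tef (r = 0.97), followed by Gm10110, Ttc7b and Mex3b (all 0.93). Nmi and Trim34a, both known as interferon-induced genes, were least like it (both -0.97). Hlf was most like Nhlrc2 (0.95), Zbtb44, Dgcr6 (both 0.94) and Usp2 (0.93), a rhythmic ubiquitin protease, and least like Ptpre (-0.97) and Ccdc59 (-0.95). Dbp was most like Mlx, Narf (both 0.91), Etnk2 and Tert (both 0.90) and least like Bod1l (-0.97) and Wrn (-0.95). Nfil3 was most like Spin1 and Smyd1 (both 0.89), Tm9sf2 (0.83) and Gabbr2 (0.81) and least like Mpp1 (-0.85) and Timm17a (-0.82). Of the 4 genes most like each, none remained for Dbp and Hlf, 1 for Tef and 2 for Nfil3 when group means were removed.

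The clock genes that drive or oppose the members were read from a list of 15, of which 14 had a row and were tested. No gene of the list was called by edgeR for DSS in wild-type livers, where 2 had an unadjusted p under 0.05 and DESeq2 called 1. Over all 17652 genes tested, 2567 had an unadjusted p under 0.05 there, and DESeq2 called 859 genes in all. For DSS in RelaΔhepStat3Δhep-labelled livers 5 of 14 fell and none rose, beside 2.46% of all genes lower, and the list's median log2 difference was -1.001 against -0.01 over all genes. The 5 were the period genes Per2 (-2.80, SE 0.45, edgeR adjusted p = 0.00764) and Per3 (-3.78, SE 0.78, adjusted p = 0.0213), Cry2 (-0.91, SE 0.19, adjusted p = 0.0170), Nr1d2 (-1.54, SE 0.36, adjusted p = 0.0266) and the repressor Bhlhe41 (-2.87, SE 0.75, adjusted p = 0.0400). Per3 was at 8.97, 23.9 and 15.3 CPM untreated and at 1.17, 0.982 and 1.34 CPM after DSS in those livers, without overlap, as were Dbp and Tef. The count depended on single livers: it was 1 without the second untreated or the first DSS-treated RelaΔhepStat3Δhep-labelled liver, 2 without the third untreated or the third DSS-treated one, 3 without the second DSS-treated one, and 9 and 8 without the second and the third DSS-treated wild-type livers.

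Arntl, which encodes the activator BMAL1, was highest in the DSS-treated RelaΔhepStat3Δhep-labelled livers, where Dbp was lowest. It was at 13.7, 14.3 and 17.2 CPM in untreated and at 29.6, 8.90 and 30.04 CPM in DSS-treated wild-type livers, and at 31.9, 14.3 and 25.3 CPM in untreated and 37.9, 41.4 and 48.1 CPM in DSS-treated RelaΔhepStat3Δhep-labelled livers. The second mouse of the DSS-treated wild-type and of the untreated RelaΔhepStat3Δhep-labelled group had the lowest Arntl of its group and the highest Dbp. In the DSS-treated RelaΔhepStat3Δhep-labelled group both genes had the same order, lowest in the first mouse and highest in the third. Over the 12 livers the r of Arntl with Dbp was -0.90 and with Tef -0.82, and that of Npas2, a partner of BMAL1, was -0.80 with Dbp and -0.92 with Tef. Neither gene passed the threshold in edgeR, with log2 differences for DSS in RelaΔhepStat3Δhep-labelled livers of 0.83 (SE 0.40, adjusted p = 0.232) for Arntl and 2.73 (SE 1.06, adjusted p = 0.153) for Npas2.

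Nr1d1, which encodes REV-ERBα, a repressor of Nfil3 and of Arntl, differed with genotype. It stood at 71.5, 108 and 97.6 CPM in untreated and 57.5, 43.3 and 91.3 CPM in DSS-treated wild-type livers, against 4.98, 8.61 and 7.45 CPM and 4.07, 3.15 and 4.18 CPM in the RelaΔhepStat3Δhep-labelled livers. Every labelled liver was below every wild-type liver. The log2 difference between genotypes was -3.72 (SE 0.30, edgeR adjusted p = 0.000362) untreated and -4.08 (SE 0.31, adjusted p = 0.000160) after DSS. It was the 1 clock gene of 14 called in untreated livers, beside 0.0623% of all genes. After DSS Nr1d2 was called with it (-2.01, SE 0.36, adjusted p = 0.0481), beside 0.334% of all genes. The call of Nr1d2 was close to the threshold, and the count after DSS fell to 1 without any 1 of 9 of the 12 livers, the exceptions being the first and second untreated RelaΔhepStat3Δhep-labelled and the first DSS-treated wild-type liver. Dbp and Nr1d1 were both lower in untreated RelaΔhepStat3Δhep-labelled than in untreated wild-type livers, while Tef overlapped and Hlf was higher. Without the third untreated wild-type liver the counts called in untreated livers stayed at 1 clock gene and 0 genes of each of the lists that follow.

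A list of 9 other genes known for rhythmic transcripts in liver had 8 with a row. For DSS in RelaΔhepStat3Δhep-labelled livers 4 of 8 fell, beside 2.46% of all genes lower: Usp2 (-4.48, SE 0.70, edgeR adjusted p = 0.00810), the cell cycle kinase gene Wee1 (-2.24, SE 0.31, adjusted p = 0.00239), Tspan4 (-1.65, SE 0.43, adjusted p = 0.0469) and the liver glycogen synthase gene Gys2 (-1.17, SE 0.23, adjusted p = 0.0134). Without the second untreated or the first DSS-treated RelaΔhepStat3Δhep-labelled liver the list's count was 2. For DSS in wild-type livers Wee1 alone of the 8 fell (-1.52, SE 0.31, adjusted p = 0.0461), beside 0.685% of all genes called in either direction. That call was lost without any 1 of 9 livers, with 0 genes of the list called then. In untreated livers all 8 had a positive difference between genotypes, with a median of 1.01 against 0.00 over all genes. EdgeR called 0, with 6 at an unadjusted p under 0.05 and 4 called by DESeq2. Of all 17652 genes tested, 2060 had an unadjusted p under 0.05 in that comparison, and DESeq2 called 334 genes in all. Usp2 was at 29.2, 8.42 and 12.6 CPM in untreated wild-type and at 32.8, 73.5 and 48.1 CPM in untreated RelaΔhepStat3Δhep-labelled livers, an order it shared with Hlf and not with Dbp. Its log2 difference there was 1.62 (SE 0.62, edgeR adjusted p = 0.354).

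**Figure D4:**
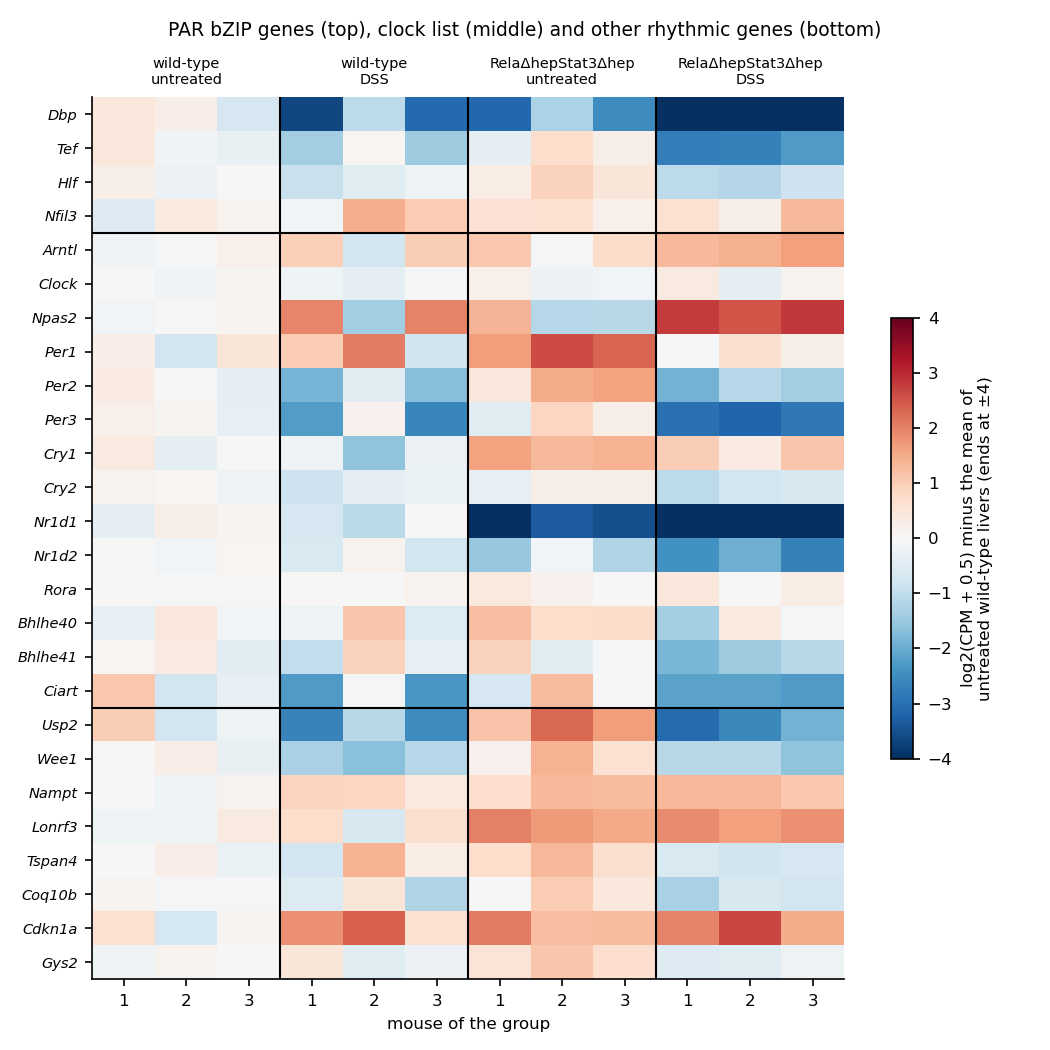
Log2(CPM + 0.5) of the 4 genes (top), 14 clock genes (middle) and 8 other rhythmic genes (bottom) in each liver, relative to the mean of the 3 untreated wild-type livers, with colours ending at 4 either way. In the DSS-treated RelaΔhepStat3Δhep livers Dbp, Tef, Per3, Nr1d1 and Usp2 are blue and Arntl and Npas2 red, and in the second DSS-treated wild-type liver Tef and Per3 are near the untreated level.

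Liver genes linked to D-box control were read from a list of 17, of which 11 had a row: Cyp7a1, Cyp2a4, Cyp2b10, Por, Alas1, Nr1i3, Ppara, Aldh1a1, Aldh1a7, Cyp4a14 and Fgf21. For DSS in RelaΔhepStat3Δhep-labelled livers 5 of 11 fell, beside 2.46% of all genes lower, and none rose, with a median log2 difference of -0.99 against -0.01 over all genes. Of the 11, 3 had a positive difference, and 2 of these were higher after DSS without overlap, beside 17.8% of all genes. Neither passed the threshold in edgeR: Fgf21, a liver hormone gene of fasting and stress (2.58, SE 0.86, adjusted p = 0.0923), and the steroid hydroxylase gene Cyp2a4 (1.29, SE 0.89, adjusted p = 0.419). Alas1, the first enzyme of haem synthesis, was at 840, 697 and 693 CPM untreated and at 93.5, 295 and 182 CPM after DSS, and fell by 1.97 on the log2 scale (SE 0.36, edgeR adjusted p = 0.00970). Por, the reductase that feeds electrons to the P450 enzymes, was at 275, 828 and 458 CPM untreated and at 99.6, 149 and 203 CPM after DSS, and fell by 1.79 (SE 0.43, edgeR adjusted p = 0.0320). Its highest liver, the second untreated one, was also the highest of that group for Dbp, Tef and Hlf. The retinal dehydrogenase gene Aldh1a1 (-1.62, SE 0.32, adjusted p = 0.0130), the drug-sensing receptor gene Nr1i3, which encodes CAR (-0.99, SE 0.19, adjusted p = 0.0116), and the fatty acid receptor gene Ppara (-0.93, SE 0.19, adjusted p = 0.0145) also fell in edgeR's test. The count was 1 without the second untreated RelaΔhepStat3Δhep-labelled liver, 2 without the first DSS-treated one and 3 without the second DSS-treated one.

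For DSS in wild-type livers 1 gene of that list fell, beside 0.685% of all genes called in either direction. This was Cyp2b10, a drug-metabolizing P450 that CAR controls. It was at 18.6, 8.27 and 16.4 CPM untreated and at 1.41, 1.85 and 0.163 CPM after DSS, without overlap (-3.66, SE 0.65, edgeR adjusted p = 0.0375). The call was lost without any 1 of the libraries other than the second and the third DSS-treated wild-type livers, with 0 genes of the list called then. In RelaΔhepStat3Δhep-labelled livers Cyp2b10 was at 19.6, 14.997 and 28.8 CPM untreated and at 4.02, 3.88 and 6.09 CPM after DSS, where the difference missed the threshold (-2.18, SE 0.60, edgeR adjusted p = 0.0559). No gene of the list was called by edgeR between genotypes without DSS (3 at an unadjusted p under 0.05, 2 called by DESeq2), after DSS (4 and 2) or for the difference of differences (5 and 2). In the same order, 2060, 2516 and 2874 of all 17652 genes had an unadjusted p under 0.05. DESeq2 called 334, 583 and 698 genes in all. Cyp7a1, the rate-limiting enzyme of bile acid synthesis, ranged from 4.78 to 402 CPM and was not called by edgeR in the 5 comparisons.

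Of 6 genes of the related C/EBP family, 4 had a row (Cebpa, Cebpb, Cebpd and Cebpe). EdgeR called 0 in each of the 5 comparisons, with 1 or 2 at an unadjusted p under 0.05, beside 2060 to 4261 of all 17652 genes. DESeq2 called 1 for DSS in wild-type livers, among 859 genes called in all, and 1 for the difference of differences, among 698.

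Markers of other cells moved in the comparison in which Dbp, Tef and Hlf had their largest differences of the 5 comparisons. For DSS in RelaΔhepStat3Δhep-labelled livers 4 of 5 Kupffer cell and macrophage markers rose in edgeR's test (Clec4f, Vsig4, Cd5l and Marco), beside 4.57% of all genes higher, and the summed level of the 5 was 269 to 295 CPM untreated and 551 to 898 CPM after DSS. That count was 0 without the second or the third untreated or the first DSS-treated RelaΔhepStat3Δhep-labelled liver, 1 without the first untreated or the second DSS-treated one, and 2 without the first DSS-treated or the third untreated wild-type liver. In wild-type livers the sum was 220 to 471 CPM untreated and 356 to 809 CPM after DSS. Hepatocyte markers (Alb, Apoa1, Ttr, Ttc36 and Hnf4a) summed to 115001 to 127392 CPM in untreated and 121381 to 160615 CPM in DSS-treated RelaΔhepStat3Δhep-labelled livers. Hnf4a was lower by 0.70 on the log2 scale as the 1 of 5 called (edgeR adjusted p = 0.0325), beside 2.46% of all genes lower. In wild-type livers the hepatocyte sum was 103495 to 120346 CPM untreated and 74252 to 124869 CPM after DSS. None of the hepatocyte markers was at 0 in any group. The 4 neutrophil markers summed to 0.345 to 0.572 CPM in untreated and 5.79 to 20.6 CPM in DSS-treated RelaΔhepStat3Δhep-labelled livers, with 2 of the 4 at 0 in all untreated ones. Of the 3 tested, all had a positive difference and none was called by edgeR (S100a8 4.68, adjusted p = 0.0792, and S100a9 4.60, adjusted p = 0.0638). In wild-type livers that sum was 1.68 to 3.08 CPM untreated and 2.06 to 78.9 CPM after DSS. The 6 T, NK and B cell markers summed to 2.97 to 3.35 CPM in untreated and 4.78 to 10.9 CPM in DSS-treated RelaΔhepStat3Δhep-labelled livers, with all 6 positive, a median of 1.20 and none called by edgeR, and to 3.68 to 6.37 and 1.66 to 3.73 CPM in untreated and DSS-treated wild-type livers. Of the 4 stellate cell markers, Lrat (0.63, SE 0.26), Dcn (0.62, SE 0.26) and Col1a1 (0.66, SE 0.55) were higher and Reln (-0.45, SE 0.23) was lower in DSS-treated RelaΔhepStat3Δhep-labelled livers without overlap, beside 17.8% of all genes higher and 14.0% lower without overlap, and their sum was 329 to 379 CPM untreated and 372 to 488 CPM after DSS. In wild-type livers that sum was 330 to 436 and 292 to 386 CPM. Of the 4 endothelial markers, Pecam1 (0.41, SE 0.21) and Clec4g (0.97, SE 0.32) were higher without overlap, and the sum was 258 to 287 CPM untreated and 246 to 372 CPM after DSS in RelaΔhepStat3Δhep-labelled livers, and 269 to 317 and 151 to 318 CPM in wild-type livers. The 4 cholangiocyte markers all overlapped in RelaΔhepStat3Δhep-labelled livers, with sums of 9.66 to 14.4 and 10.7 to 16.4 CPM, against 6.02 to 9.01 and 12.2 to 21.0 CPM in wild-type livers. No stellate, endothelial or cholangiocyte marker was called by edgeR for DSS in RelaΔhepStat3Δhep-labelled livers, and none of these 3 sums was 0 in any liver. The part of these markers in the differences of Dbp, Tef and Hlf was not tested.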

How the data were processed

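Paired-end RNA-seq was run on rRNA-depleted liver RNA of 12 mice. The authors trimmed reads with fastp, aligned them to mm9 with HISAT2 and made the table with StringTie, and they deposited estimated counts per gene as whole numbers before any normalization. The annotation used for counting is not given in the sources used here. GENCODE vM1 (mm9) names 28677 of the 51609 rows and leaves 22932 unnamed, and 23458 rows are 0 in every library.

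The fits were made with edgeR 4.0.16 in R 4.3.3. Genes passing filterByExpr (17652) were scaled by TMM and fitted by the robust quasi-likelihood method in 1 model of 4 groups, and p-values were adjusted by the Benjamini-Hochberg method over all of them, with a threshold of 0.05. The difference of differences is the DSS difference of RelaΔhepStat3Δhep-labelled livers minus that of wild-type livers. Each log2 difference has a standard error (SE) from the same fit. Likeness used log2 CPM with a pseudocount of 0.5. The members, lists and tests were chosen with earlier results of these data known. Named genes were the members, the called genes of each list, the 4 genes most and 2 genes least like each member, the targeted and sex-linked genes and the markers, and Arntl, Npas2, Cyp7a1, Fgf21 and the values of Usp2 in untreated livers were named after their values were seen. Alternatives were DESeq2 1.42.0, its size factors in edgeR, 2 other filters, a fit to only the groups under comparison, a replicate block, and leaving out each liver. The steps were tested on simulated data. Within each group no library was found to be a copy of another, and libraries of different groups were not compared in this way.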

Additional observations from a re-analysis of the deposited data

Results flagged for a closer look

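Cyp2a4, a steroid hydroxylase gene of the D-box list, drew attention because every DSS-treated wild-type liver was below every untreated one and every DSS-treated RelaΔhepStat3Δhep-labelled liver was above every untreated one. The log2 difference of DSS was -3.80 in wild-type and 1.29 in labelled livers, and the difference between them was 5.09 (SE 1.31, edgeR adjusted p = 0.126), which did not pass the threshold. It stood at 161, 343 and 940 CPM in untreated and 74.7, 6.45 and 22.8 CPM in DSS-treated wild-type livers, and at 260, 221 and 791 CPM and 940, 818 and 1349 CPM in the labelled livers. Cyp2a4 has close paralogs, so its counts are uncertain, and Cyp2a5 has no row. The 4 livers with high Xist are the 3 of the labelled DSS group and the third untreated wild-type liver, the highest of its group for Cyp2a4, and the part of sex in the result was not tested. Without that wild-type liver the DSS difference in wild-type livers was -2.87 (SE 0.91) and the difference of differences 4.16 (SE 1.23, edgeR adjusted p = 0.218). Without the first DSS-treated wild-type liver, at 74.7 CPM, the same values were -5.04 (SE 1.06) and 6.33 (SE 1.27, edgeR adjusted p = 0.0556), and the difference between genotypes after DSS was 6.15 (SE 1.12) and passed the threshold (edgeR adjusted p = 0.0310), against 4.90 (SE 1.03, adjusted p = 0.0945) with all livers. The DSS difference in labelled livers was 0.98 (SE 1.02) without the second untreated labelled liver and 2.11 (SE 1.00) without the third.

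Cebpb, a C/EBP factor induced in inflammation, drew attention because every DSS-treated wild-type liver was above the mean of the untreated ones and every DSS-treated labelled liver was below the mean of its untreated ones. It stood at 16.2, 26.5 and 26.3 CPM in untreated and 29.8, 65.0 and 26.6 CPM in DSS-treated wild-type livers, against 40.1, 61.3 and 28.7 CPM and 19.6, 29.2 and 24.8 CPM in labelled livers. Its log2 difference of DSS was 0.82 in wild-type and -0.82 in labelled livers, and the difference between them was -1.64 (SE 0.52, edgeR adjusted p = 0.176), which did not pass the threshold. The second DSS-treated wild-type liver, at 65.0 CPM, carried much of this. Without it the DSS difference in wild-type livers was 0.29 (SE 0.29) and the difference of differences -1.12 (SE 0.40, edgeR adjusted p = 0.203). That liver is also the one with high neutrophil markers, whose part was not tested. Without the second untreated labelled liver, at 61.3 CPM, the DSS difference in labelled livers was -0.49 (SE 0.36). The difference of differences was then -1.30 (SE 0.49, edgeR adjusted p = 0.316).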

How the results depend on the processing

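Of 356 values of the members' log2 differences under alternatives, 348 moved by less than the spread between livers, and 8 moved by more. The sign changed in 4, none of them a called value: the untreated genotype difference of Tef was -0.07 without the second untreated RelaΔhepStat3Δhep-labelled liver, and Nfil3 was -0.05 for DSS in labelled livers without the third DSS-treated one and 0.22 or 0.07 between genotypes after DSS without the second DSS-treated wild-type or labelled liver. Leaving out a liver in turn, Dbp ran from -3.78 to -1.90 for DSS in wild-type livers, -4.38 to -3.20 for DSS in RelaΔhepStat3Δhep-labelled livers, -3.08 to -1.91 and -4.38 to -2.51 between genotypes without and with DSS, and -2.11 to -0.25 for the difference of differences. Tef ran from -1.46 to -0.51, -2.11 to -1.18 and -2.35 to -1.42 for DSS in wild-type livers, genotypes after DSS and the difference of differences.

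In the order DSS in wild-type, DSS in labelled livers, genotype untreated, genotype after DSS and difference of differences, edgeR called 121, 1240, 11, 59 and 72 genes and DESeq2 859, 2315, 334, 583 and 698. Leaving out a liver gave 35 to 209, 241 to 1736, 2 to 34, 11 to 392 and 21 to 220. DESeq2 called 2, 2, 2 and 2 D-box genes (all but DSS in labelled livers), 1, 8, 4, 5 and 2 clock genes, 4, 4, 2 and 2 rhythmic genes (all but DSS in labelled livers) and 1 C/EBP gene for DSS in wild-type livers and for the difference of differences. With only the groups compared, all calls were 21 for DSS in wild-type and 60 for untreated genotypes, with 0 and 1 D-box, 0 and 1 rhythmic and, for genotypes, 2 clock genes. With no filter 0 D-box genes were called for DSS in wild-type, 3 and 1 clock genes for DSS in labelled livers and genotypes after DSS, and 1 rhythmic gene for untreated genotypes. Leaving out a liver, D-box calls ran 0 to 1, 1 to 6, 0 to 1 (after DSS) and 0 to 1 (difference of differences), clock calls 0 to 3, 1 to 9, 1 to 2, 1 to 3 and 0 to 1, and rhythmic calls 0 to 1, 2 to 5, 0 to 2, 0 to 2 and 0 to 1. The cause was not tested.

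Samples with the same number did not deviate together (correlations of -0.073 to 0.206), so the numbers were not taken to pair mice. With the replicate block 33 genes were called for untreated genotypes and 128 for the difference of differences, with 0 D-box and 0 rhythmic genes for DSS in wild-type and 2 clock and 1 rhythmic gene for untreated genotypes. Of the 4 genes most like Dbp, Tef, Hlf and Nfil3, 0, 1, 0 and 2 were kept with group means removed and 1, 2, 2 and 1 with Spearman's rho. The protein comparison was not run. The depth limits Dbp in the DSS-treated labelled livers, at 13 to 28 counts. The standard errors cover counting and a spread between mice that the model shares over all 4 groups, not only the groups compared.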
